A study of Cuscuta campestris with 8 samples.

Results

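Cuscuta campestris is a parasitic plant without leaves that lives on the stems of other plants. It twines as a thin shoot with a growing tip, and where the shoot touches a host it forms haustoria, organs that enter the host and draw water, sugars and minerals from it. The data described here concern 221 genes of medium read abundance that were much lower in the haustorial region than in the shoot. The files list 45825 genes, of which 32855 passed the filter on low counts, and 17651 of these had a mean of 10 to 100 CPM (counts per 1000000 counts of the library, with TMM scaling) over the 8 libraries. From these the 221 members were chosen by a ratio of shoot to haustorial mean of at least 16, with 0.1 CPM added to both means, and by the condition that every shoot value lay above every haustorial value. This last condition removed no gene, since 221 genes met the ratio before it was applied. The members therefore fell in the haustorial region by construction. Their difference between tissues is given as a description, and calls on it only repeat the choice.

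The study compared 4 samples of the haustorial region with 4 samples of the vegetative shoot, each a pool from 3 to 4 plants, by sequencing polyadenylated RNA. Each plant had begun as a shoot tip of 3 cm taken from a parasite raised on Beta vulgaris and was fixed in vitro to an artificial host with liquid MMS medium. That medium held the synthetic auxin 1-naphthaleneacetic acid at 3 mg per litre and the cytokinin 6-benzylaminopurine at 1 mg per litre, and it reached the parasite through the haustoria. Both tissues shared the medium, 2.5 days of light rich in far-red, 12.5 days of full-spectrum light and the harvest at 15 days. The shoot samples contained stem and meristems, without the 5 mm of stem closest to the haustoria, whereas visible meristems and shoots had been cut away from the haustorial samples. Loss of a gene in the haustorial region and absence of the meristem or stem cells that use it cannot be told apart in such bulk tissue, nor can fewer cells of a type and less RNA per cell. There was no living host, and no genotype or clone is given in the labels.

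No member could be given a gene name, a place in the genome or a function. The files hold identifiers alone, and 0 of the 45825 matched the 45474 entries of the available gene table for this species. The identity of the tissues could for the same reason not be checked against marker genes, and no sequence of a member is shown. Gene lengths were not known either, so CPM orders genes by reads and not by transcript number. Total counts were 23465088 to 31246017 in haustorial libraries and 22334600 to 34247925 in shoot libraries. At these depths 3 counts stand for 0.0829 to 0.135 CPM, depending on the library.

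In the shoot the members had mean levels of 19.9 to 184 CPM, with a median of 42.8. In the haustorial region their means ran from 0 to 10.1 CPM, with a median of 0.919. The ratio used for the choice had a median of 44.6 and reached 1115. Most members sat near the lower end of this range, with 84 (38.0%) between 16 and 32 and 58 (26.2%) between 32 and 64. A further 33 lay between 64 and 128, 30 between 128 and 256, and 16 at 256 or more. The highest ratios depend on the added 0.1 CPM. Taken from summed counts, with members at 0 placed at 3 counts over the 4 haustorial libraries, the median ratio was 49.0. The 5 members just inside the threshold had ratios from the threshold itself up to 16.3, and the 5 genes just outside it, within the same abundance limits and without overlap, had ratios from 15.6 to just under the threshold. The threshold thus cut through a continuous range of ratios.

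**Figure D1:**
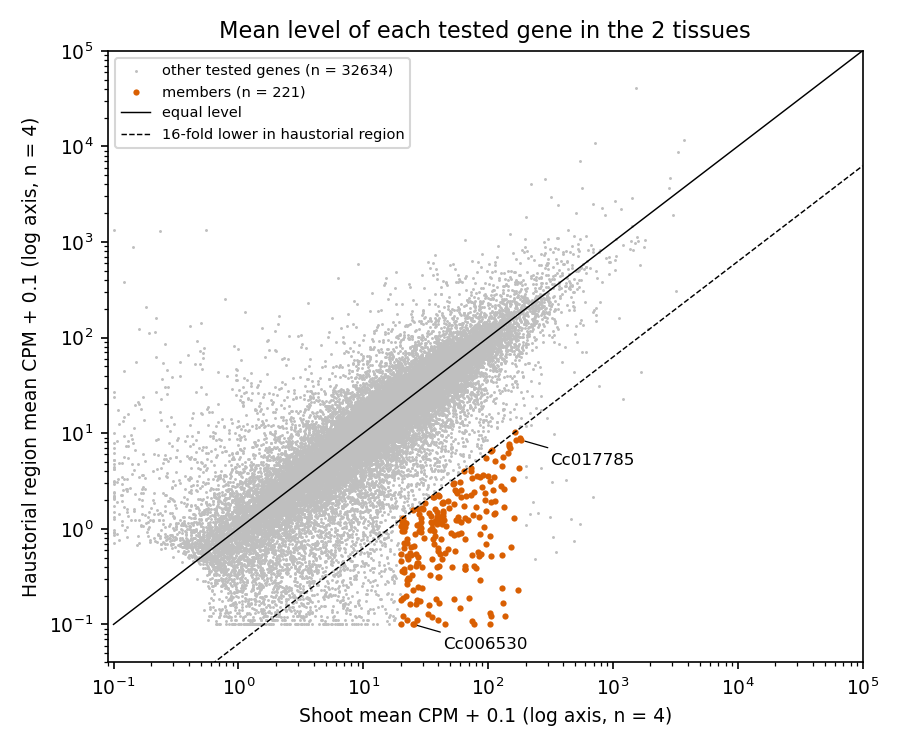
Mean CPM plus 0.1 of each tested gene in the shoot (x axis) and the haustorial region (y axis), both on log axes, with the 221 members in orange and the named members marked. Members fill the area below the dashed 16-fold line between shoot means of 19.9 and 184 CPM, from the floor at 0 up to a haustorial mean of 10.1 CPM.

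Each of the 221 members was called lower in the haustorial region over the whole table (edgeR quasi-likelihood test, Benjamini-Hochberg adjustment over 32855 genes), where 34.0% of tested genes were called lower. Each also passed with at least a 2-fold change, against 15.3% of tested genes, and each had shoot and haustorial values that did not overlap, against 31.8% of tested genes with every shoot value on top. Nothing can be read from these counts, because the same contrast chose the members. The fitted log2 fold changes ran from -14.43 to -4.01 with a median of -5.61, and the median over all tested genes was -0.02. The most negative value belongs to a member with 0 haustorial counts, so its size is not determined by the reads. Another member with 0 haustorial counts stood at -12.40 in this fit and at -11.69 with DESeq2. Their standard errors had a median of 0.20 and reached 0.78.

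The same ratio was also taken in libraries set aside while the rule was applied again. Scaling still used all 8 libraries, so those set aside were not fully apart from the choice. When both libraries numbered 1 were set aside and the rule was applied to the other 6, 218 genes were chosen, of which 213 were members. Their median ratio in the 2 unused libraries was 50.8, and 209 of them (95.9%) reached 16 again. With the libraries numbered 2 set aside, 230 genes were chosen, the median in the unused pair was 36.3, and 204 (88.7%) reached 16. For number 3 the median was 48.0 with 199 of 217 genes (91.7%) at 16 or more, and for number 4 it was 47.6 with 202 of 224 (90.2%). The lowest ratio of any chosen gene in an unused pair was 6.69. These values depend on the 0.1 CPM added to each level: the mean of the 4 medians was 45.7 with it, 30.8 with 0.5 CPM and 22.0 with 1 CPM. A large difference between tissues was present in each pair left aside, and it was smallest for the pair numbered 2.

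The members were nearly absent from the haustorial region in part, but not as a class. A mean of at least 1 CPM there was found for 103 members (46.6%), and 186 (84.2%) had at least 1 count in each of the 4 haustorial libraries. Of the others, 15 had counts in 3 haustorial libraries, 5 in 2, 9 in 1 and 6 in none. A haustorial mean under 0.1 CPM, near the level of 3 counts in a single library, was seen for 30 members (13.6%). At most 3 counts over the 4 haustorial libraries together were found for 16 members (7.24%). The 26 members with a haustorial mean over 3 CPM had a median shoot level of 112 CPM and a median ratio of 21.8. The 24 members above 0 and up to 0.1 CPM had a median shoot level of 34.7 CPM and a median ratio of 244. Since the rule fixes the smallest ratio, a high haustorial level was possible only for members with a high shoot level.

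**Figure D2:**
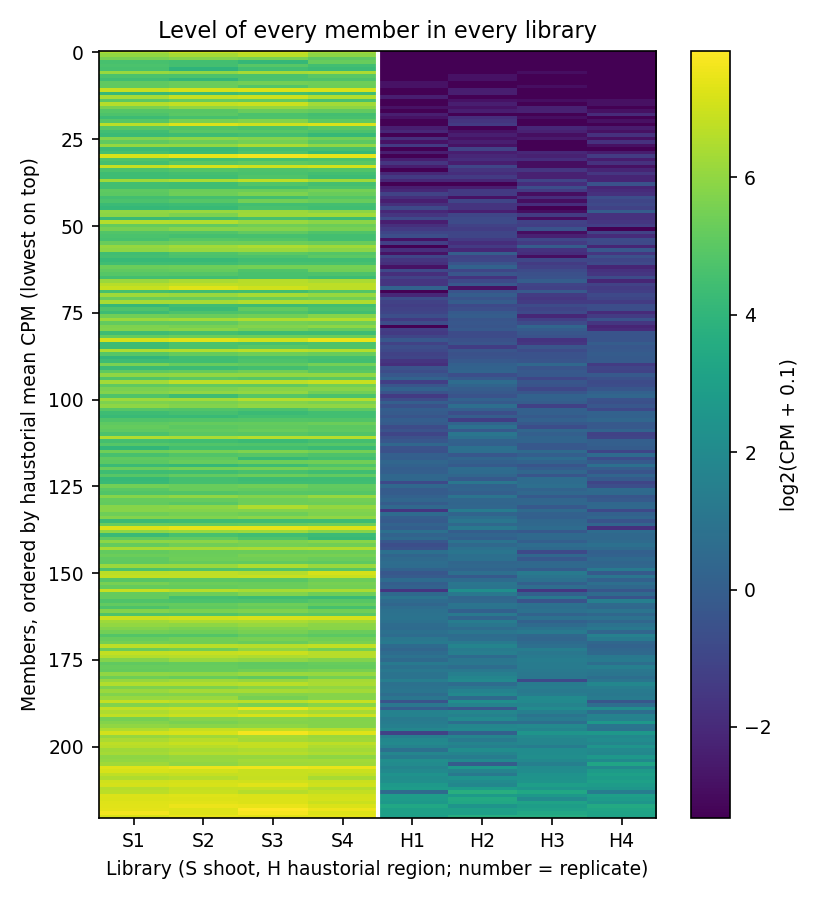
Level of each of the 221 members (rows, ordered by haustorial mean) in the 4 shoot libraries (S1 to S4) and the 4 haustorial libraries (H1 to H4), as log2(CPM + 0.1). Shoot values lie above haustorial values in each row, with a highest shoot value up to 2.19 times the lowest, while haustorial columns pass from 6 members with 0 counts at the top to members of up to 10.1 CPM at the bottom, with single dark or light cells where 1 library differs from the rest.

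The 6 members without a haustorial count had shoot means of 20.1 to 103 CPM. Leaving out haustorial replicate 2 raised their number to 12. Placing 3 counts over the 4 haustorial libraries makes the 6 members at least 671-fold to at least 3373-fold lower there, for counting error alone. Another 10 members had 1 to 3 haustorial counts. The largest ratio of summed counts among them was 7270, from 8653 shoot counts and 1 haustorial count, and its exact 95% interval for counting error ran from 1305 to 287194. With so few reads neither the size nor the ranking of these ratios is determined. A member of higher level shows a deep loss on more haustorial reads. It had 143, 175, 201 and 172 CPM in shoot replicates 1 to 4 and 0, 0.134, 0.105 and 0.282 CPM in haustorial replicates 1 to 4, from 13 haustorial counts in all. It was the sixth member by mean CPM, and its ratio of summed counts was 1290.

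The member with the highest mean CPM was Cc017785. It stood at 165, 156, 229 and 185 CPM in shoot replicates 1 to 4 (184 ± 32.5, SD, n = 4). In haustorial replicates 1 to 4 it had 7.99, 7.94, 8.15 and 9.44 CPM (8.38 ± 0.712, n = 4). Shoot replicate 3 was the highest of the shoot libraries, and the haustorial values were close together, with replicate 4 on top. The log2 fold change was -4.45 ± 0.13 (SE). Its 822 haustorial counts showed 1.47 times the variance that sampling alone gives between the 4 libraries, and its 21416 shoot counts 173 times. Such multiples rise with the number of counts, so these are not comparable between the tissues. The SD was 0.0850 of the mean in the haustorial region and 0.177 of the mean in the shoot. Relative to its level, this gene thus varied less between the haustorial pools than between the shoot pools.

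The member with the largest relative range between shoot libraries was Cc006530. Its shoot values were 23.7, 21.8, 17.3 and 37.9 CPM in replicates 1 to 4 (25.2 ± 8.91, SD, n = 4), a highest value 2.19 times the lowest. It had 0 counts in each haustorial library and 2865 counts over the shoot libraries, which puts its haustorial level at least 802-fold lower. Shoot replicate 4 was highest here and replicate 3 lowest, the reverse of the order in Cc017785 for replicate 3. Values of the shoot and the haustorial region were far apart for both genes.

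As a group the members held 1.39% ± 0.0822 (SD, n = 4) of shoot counts and 0.0290% ± 0.00272 of haustorial counts. Their summed level was 12320, 13130, 13808 and 12902 CPM in shoot replicates 1 to 4. In haustorial replicates 1 to 4 it was 267, 337, 316 and 322 CPM. Replicate 3 was the highest shoot library and replicate 1 the lowest, and among haustorial libraries replicate 1 stood below the other three, which were close together. The median member was at 0.677 CPM in haustorial replicate 1 and at 0.981 CPM in replicate 2. Haustorial replicate 1 also had the most members without a count, 24, against 13 in replicate 2, 20 in replicate 3 and 19 in replicate 4.

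**Figure D3:**
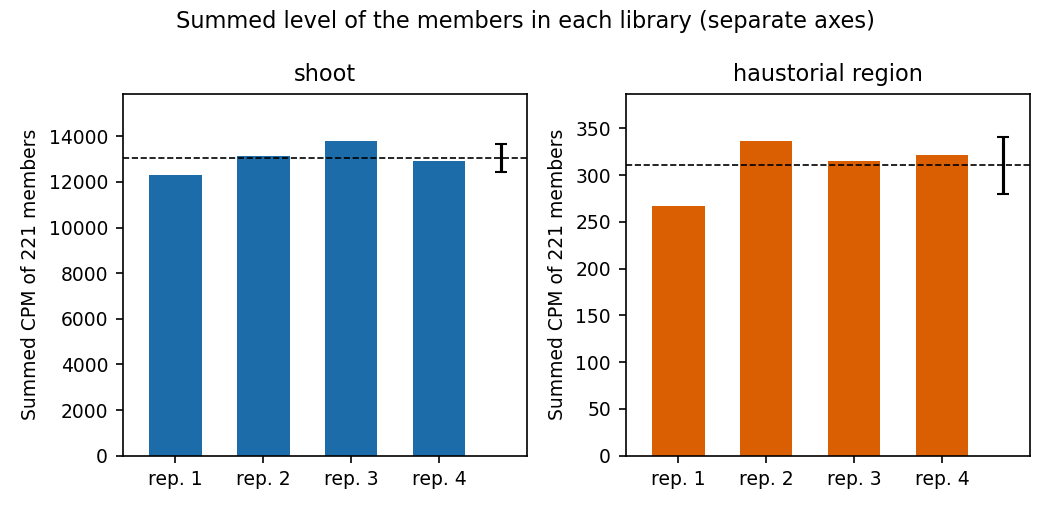
Summed CPM of the 221 members in each shoot library (left) and each haustorial library (right), with the mean as a dashed line and the SD (n = 4) as a bar at the right of each panel. The axes differ: shoot libraries lie between 12320 and 13808 CPM and haustorial libraries between 267 and 337 CPM.

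Between shoot pools many members shared a pattern. The rule used the shoot values through their mean and the condition on overlap, but not the order of the shoot libraries. Shoot replicate 3 was the highest of the 4 shoot libraries for 103 members (46.6%) and shoot replicate 1 for 17 (7.69%). Replicate 1 was the lowest for 97 members (43.9%). Among the 11454 other genes with a shoot mean inside the same range, replicate 3 was the highest for 20.6% and replicate 1 the lowest for 22.6%. The median member stood at 0.937 of its own shoot mean in replicate 1, 0.996 in replicate 2, 1.06 in replicate 3 and 0.999 in replicate 4. For the other genes the 4 medians were between 0.991 and 1.01. The members were thus somewhat higher in shoot replicate 3 and lower in replicate 1 than genes of like level. With 1 pool per library no test of a single pool was possible, and members that vary together are not independent.

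**Figure D4:**
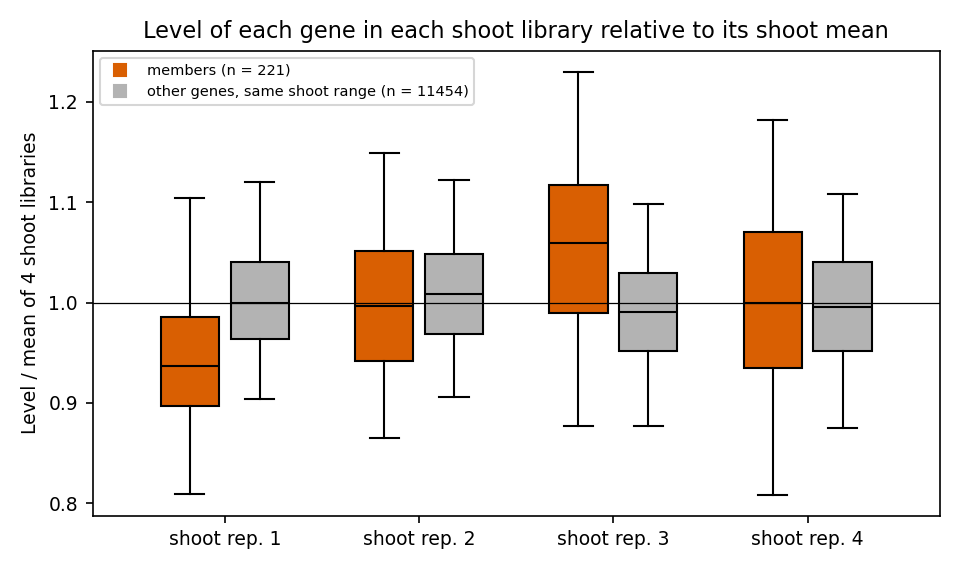
Level of each gene in each shoot library divided by its mean over the 4 shoot libraries, for the 221 members (orange) and the 11454 other genes of the same shoot range (grey). Boxes give the quartiles and median and whiskers the 5th to 95th percentile. The members' median is 0.937 in replicate 1 and 1.06 in replicate 3, while those of the other genes lie between 0.991 and 1.01.

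The spread between shoot pools was also wider. The coefficient of variation (CV, the SD over the mean of the 4 shoot libraries) had a median of 0.0996 for the members and 0.0594 for the other genes of the shoot range. Variance between shoot libraries exceeded that of sampling 13.8 times at the median for members and 4.02 times for the other genes. Among the members the spread was alike in the classes below a ratio of 64 and wider above it. The median CV was 0.0880 for members with a ratio of 16 to 32 and 0.0903 at 32 to 64. It was 0.118 at 64 to 128 and 0.130 at 128 to 256. The 16 members at 256 or more, a class of few genes, stood at 0.149. Median shoot levels were 39.9 to 42.1 CPM in the classes up to 256 and 81.6 CPM in the last. Over all genes of the shoot range the CV was smallest, at 0.0533, where the tissues were within a ratio of 0.8 to 1.25. It was 0.0717 at 2 to 4, 0.0974 at 8 to 16, above the 0.0885 of the members at 16 to 64, and 0.106 for genes with a haustorial level 2-fold higher or more. A wide spread between shoot pools was therefore not particular to the members, but was shared by genes that differed between the tissues in either direction.

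**Figure D5:**
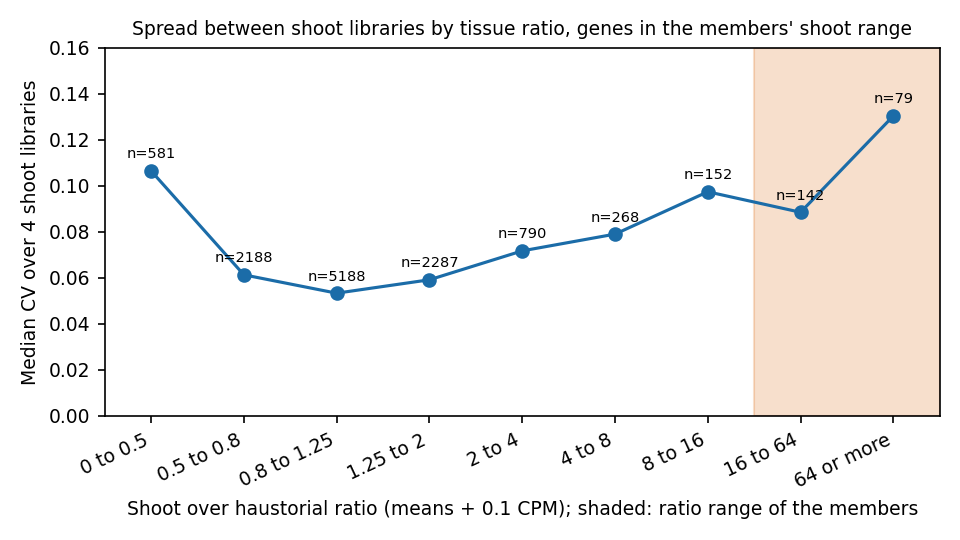
Median coefficient of variation over the 4 shoot libraries (y axis) for genes in the members' shoot range, grouped by the ratio of shoot to haustorial mean (x axis), with the number of genes at each point. The median is lowest, 0.0533, for genes of about equal level and reaches 0.130 for the 79 members with a ratio of 64 or more.

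Single members departed from this pattern. The member with the most even shoot level had 55.6, 54.5, 55.1 and 54.5 CPM in shoot replicates 1 to 4, a CV of 0.00920. Its haustorial values were 0.226, 2.50, 1.33 and 0.444 CPM in replicates 1 to 4, from 5, 56, 38 and 11 counts. Replicates 2 and 3 were thus high and replicates 1 and 4 low, although the shoot values hardly differed.

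Low haustorial levels were uneven between pools for many members. Of the 184 members with at least 20 haustorial counts, 83 (45.1%) showed at least 4 times the variance expected from sampling, against 32.3% of the 13647 other genes with counts in the same range. For 18 of the 184 members (9.78%) more than 50% of the haustorial CPM came from 1 library, against 1.04% of the other genes. These libraries were replicate 2 for 6 members, replicate 4 for 6, replicate 3 for 5 and replicate 1 for 1. The strongest case had 102 of its haustorial counts in replicate 2, with 5, 7 and 17 in replicates 1, 3 and 4. Its values were 0.226, 4.55, 0.245 and 0.686 CPM in haustorial replicates 1 to 4, and 114, 100, 81.8 and 86.6 CPM in shoot replicates 1 to 4. The count range of the other genes is the same, but their spread over that range was not matched to the members, so the shares are set side by side without a test.

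A group of 12 members was high in haustorial replicates 2 and 3 together. In these the lower of both replicates was at least 2 times the higher of replicates 1 and 4. That was 6.52% of the 184 members and 0.359% of the other genes. No other pair of haustorial libraries was high in this way for more than 4 members. Replicates 3 and 4 were for 2.17% of members against 0.454% of other genes. Replicates 1 and 2 were for 1.09% against 0.366%, and replicates 2 and 4 for 1.09% against 0.33%. The pairs 1 and 3 and 1 and 4 were for 0 members. The members also spread more between haustorial libraries, with a median CV of 0.357 against 0.191, so the shares were not compared at equal spread. The summed counts of the 12 were 97, 663, 680 and 146 in haustorial replicates 1 to 4, or 4.38, 29.6, 23.8 and 5.89 CPM. In the shoot they summed to 651, 669, 653 and 670 CPM, so the shoot libraries differed little. One of the 12 gave 656 of these haustorial counts, with 1.35, 12.5, 9.86 and 2.54 CPM in replicates 1 to 4. Without it the other 11 summed to 67, 382, 398 and 83 haustorial counts in replicates 1 to 4. The shoot values of this member were 103, 119, 98.0 and 113 CPM, and its ratio of 16.2 was close to the threshold. Without the 12, the remaining 209 members still summed to 263, 307, 292 and 316 CPM in haustorial replicates 1 to 4, with replicate 1 the lowest. The pair of replicates was picked after the values were seen.

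Other members had an even low level in the haustorial region. The most even of those with at least 20 counts had 2.12, 2.10, 2.17 and 2.02 CPM in haustorial replicates 1 to 4, from 206 counts. Its variance was 0.0497 times that of sampling. In the shoot it had 36.2, 37.7, 42.5 and 46.2 CPM. The member with the highest haustorial level had 7.72, 12.1, 12.1 and 8.47 CPM there and 146, 174, 166 and 166 CPM in the shoot, and its ratio was the lowest of all members.

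Genes with the reverse difference were fewer. With the tissues exchanged, the same rule chose 105 genes, with a median haustorial level of 46.8 CPM and a median shoot level of 0.951 CPM. Of these, 46 (43.8%) had a shoot mean of at least 1 CPM and 2 had no shoot count, shares near those of the 221 members (46.6% and 2.71%). The levels in both sets follow from the rule. Between the pools of their own high tissue the 105 genes had a median CV of 0.188, against 0.0911 for other genes of that haustorial range, so a wider spread was seen on this side too.

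With the list of identifiers cut into 10 equal stretches, each held 12 to 33 of the 221 members. The tested genes per stretch ranged from 2108 to 3758. A member as direct neighbour in number was found for 4 members (1.81%), one within 2 for 14 (6.33%) and one within 5 for 27 (12.2%). For the 5029 genes called lower by 2-fold or more, the shares with another such gene were 33.9%, 49.6% and 75.3%, but that set is far larger, so the shares cannot be compared directly. Of 342 tested genes next to a member in number and not members themselves, 90 (26.3%) were called lower in the haustorial region by 2-fold or more, and 14 (4.09%) were called higher by that much. Among all tested genes these shares were 15.3% and 9.34%. At a distance of 2 they were 16.2% and 8.83%, at 5 they were 17.8% and 7.93%, and at 10 they were 15.0% and 11.1%. The share of lower genes was thus largest directly beside the members. That the numbers follow the order of genes in the genome is not given in the sources used here, and reads shared between like copies of a gene were not examined.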

How the data were processed

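Polyadenylated RNA was measured in 8 libraries, grouped by their titles, with 4 per tissue. The authors deposited 1 file of raw read counts for each library, not scaled, as the whole numbers and unequal totals show. The submitters' processing notes name STAR 2.5.2b. How reads were counted, on which strand, and against which build and annotation is not given in the sources, so overlapping, antisense and near-identical genes are uncertain. With R 4.3.3, low genes were removed by filterByExpr of edgeR 4.0.16 (defaults, about 10 counts in 4 libraries and 15 in total), and counts were scaled by TMM and tested with a robust quasi-likelihood fit with tissue as the only term. P-values were adjusted over 32855 genes. The script was tested on simulated data. The members, lists and measures were chosen with earlier results of these data known. The named genes were to be the member of highest mean CPM and that of largest ratio between shoot libraries, and others are described by rank without identifier, chosen after their values were seen. Other genes in a range exclude members. Variance over sampling is the chi-square per degree of freedom of counts over scaled totals. Held-out ratios use scaling over 8 libraries. Marker lists could not be linked to identifiers and were not used. Alternatives were other scalings, filters, offsets and fold minimums, DESeq2 1.42.0, a replicate block and leaving out each library. No label ties a replicate number to shared plants or says that pools were independent cultures, so errors measure the spread between these samples. Intervals and bounds cover counting error only, since reads carried no molecular identifiers known here.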

Additional observations from a re-analysis of the deposited data

Results flagged for a closer look

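In 4 libraries a value can stand apart when its gap to the nearest other value takes up most of the range, and chance does this in about 1 of 20 groups. Cc017785 was marked in the haustorial region, where replicate 4 (9.44 CPM) lay above the other three (7.94 to 8.15 CPM) and the gap was 0.861 of the range. The range itself was small, and the counts varied by 1.47 times the sampling variance. The member with the largest share of its haustorial CPM in 1 library was marked with a gap of 0.894 of the range, 4.55 CPM in replicate 2 against at most 0.686 CPM elsewhere. It was picked for this property. Among the 184 members with at least 20 haustorial counts, 15 (8.15%) passed this limit in the haustorial region, against 4.87% of other genes with counts in that range. In the shoot, 14 of 221 members (6.33%) did, against 4.71% of the other genes of that shoot range.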

How the results depend on the processing

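The 221 members were called lower in each fit, including DESeq2, the replicate block (221 members; 20659 genes called in all against 21412) and the fits without each library in turn (221 throughout), which follows from their choice. Same-numbered libraries deviated with correlations of -0.0619 to 0.0417 when genes were not limited to the members. Over the members alone these correlations were -0.119 to 0.0108, and no pairing was assumed. The rule gave 219 to 252 members under other scalings and filters, with library totals alone at 252 (219 of them shared) and the median log2 fold change of all genes moved by -0.19. It gave 218 to 229 without each library, 214 to 219 of them shared, 195 and 170 with offsets of 0.5 and 1 CPM, 382 with a minimum ratio of 8 and 137 with 32. Leaving out each library gave 19980 to 21282 called genes. Members without a haustorial count were 6, or 16 with up to 3 counts allowed, and 6 to 12 without each haustorial library. The held-out ratio, 45.7 as a mean of the 4 medians, was 30.8 and 22.0 with offsets of 0.5 and 1 CPM. The summed shoot level was 13935 CPM instead of 13040 with library totals alone. Members highest in shoot replicate 3 were 103 to 118 and members lowest in replicate 1 were 97 to 107 over the scalings, an alternative chosen after seeing the data. The median shoot CV was 0.0865 to 0.106 without each shoot library, against 0.0538 to 0.0584 for the other genes. Members with a neighbour in number were 4, 14 and 27 at distances up to 1, 2 and 5. Depth limits statements on members near 3 counts per library.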
